A study of Mus musculus with 144 samples.

Results

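The genes described here are 10 members of the NRF2 and glutathione defence of mouse liver, taken by symbol from the 51912 genes of the deposited count table. They are Nfe2l2, Keap1, Nqo1, Gclc, Gclm, Srxn1, Gsr, Cat, Sod1 and Prdx6. The study read the 3′ ends of liver mRNA, next to the poly(A) tail, in 144 libraries of male C57BL/6J mice kept in a cycle of light and dark with food always available. Wild-type livers gave 3 series of 36 libraries each, from total, nuclear and polysomal RNA, and the series labelled Bmal1-/-, from mice without the clock gene Bmal1, gave 36 libraries of total RNA. Every series has 6 libraries at ZT2, 6, 10, 14, 18 and 22, where ZT (zeitgeber time) is the number of hours since the light came on. Nuclei were spun through a sucrose cushion and polysomes were taken from a sucrose gradient with cycloheximide, both from frozen tissue. The labels give neither the age of the mice, nor which part of Bmal1 is deleted, nor whether 1 liver gave several fractions.

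NRF2, the product of Nfe2l2, is a transcription factor of the basic leucine zipper family that pairs with small MAF proteins and binds antioxidant response elements (AREs) near its target genes. KEAP1 holds NRF2 in the cytoplasm and hands it to a ubiquitin ligase built on CUL3, so that the factor is short-lived until oxidants or electrophiles modify KEAP1. The targets make glutathione, recycle thiols and detoxify quinones and peroxides, work for which the liver is known. BMAL1 is a transcription factor of the circadian clock that acts through E-boxes.

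The 4 sequences below are shown because they hold the only matches, in the promoters at hand, to the form of the ARE core searched here. NRF2 acts through the ARE, and other forms of the core were not searched. A RefSeq promoter (GRCm38.p6, 250 bases before to 50 after the gene start) was at hand for 7 of the 10 genes, and Gclc, Gsr and Prdx6 were not in that table. The core was searched as TGACNNNGC and its reverse complement GCNNNGTCA, and is in capitals with 10 bases on either side, read on the strand of the gene.
Nfe2l2 ARE core: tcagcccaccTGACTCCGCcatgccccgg
Gclm ARE core: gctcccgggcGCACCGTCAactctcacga
Srxn1 ARE core: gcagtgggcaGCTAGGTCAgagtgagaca
Sod1 ARE core: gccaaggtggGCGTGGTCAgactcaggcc
The stretches lie at chr2:75704885-75704913 (minus strand) for Nfe2l2, chr3:122245413-122245441 for Gclm, chr2:152105542-152105570 for Srxn1 and chr16:90220696-90220724 for Sod1. Counted from the start that the promoter table uses, their cores begin at position -240 in Nfe2l2, -134 in Gclm and -56 in Sod1. For Gclm that start lies inside the gene span given below, and the 3 cores lie before their gene spans. The Srxn1 core begins at position 28, inside the gene span. The core is short and was found in 12.4% of 32851 promoters of the same length, against 4 of these 7, so a match is a description of the letters and not a binding site. The E-box CACGTG, which reads the same on both strands, was in 7.15% of promoters and in 0 of these 7 windows.

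The genes lie apart in the genome, so none shares reads with another member. In GRCm38.p6, Nfe2l2 spans chr2:75675513-75704663, Cat chr2:103453904-103485153 and Srxn1 chr2:152105524-152111376. Keap1 spans chr9:21229730-21239332 and Gclc chr9:77754535-77794489. Gsr spans chr8:33653238-33698162 and Nqo1 chr8:107388225-107403205. The remaining spans are chr1:161240112-161251210 for Prdx6, chr3:122245487-122267215 for Gclm and chr16:90220762-90226333 for Sod1.

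The wild-type total libraries held 5316601 to 9831142 gene counts and the nuclear ones 1662449 to 6620128. Polysomal libraries held 2578048 to 13068044 and those labelled Bmal1-/- 4379549 to 14281894. The hepatocyte markers Alb, Ttr, Apoa1 and Cyp2e1 were abundant in every series. Their median summed level was 66250 CPM (counts per 1000000 counts of a library) in wild-type total, 37627 CPM in nuclear, 32865 CPM in polysomal and 51063 CPM in Bmal1-/- labelled RNA. Arntl, the symbol of Bmal1, was counted at 11.5 CPM ± 2.98 (SD, n = 36) in the libraries labelled Bmal1-/-, and the wild-type total libraries had 6.73 CPM ± 5.40 (SD, n = 36). A 3′ tag outside the deleted part checks nothing about a deletion, so these libraries are called by their label. In each series 1 library at ZT22 had Xist above 100 CPM although all mice are labelled male, and 21 libraries had the adipocyte gene Cfd above 20 CPM. Of the other adipocyte markers, Adipoq and Plin1 averaged under 0.5 CPM over the 36 libraries of every series, and Fabp4 did not. Whether the libraries with Cfd hold fat tissue was not tested. Each result on gene counts was also computed without the libraries with Xist or Cfd. No label says that the 6 libraries of a group are 6 animals, so p-values measure the spread between these libraries, which may be technical.

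Levels are given in CPM of the raw library total. A 3′ tag is counted once per transcript whatever its length, so levels were set side by side between genes. A limit is that the gene counts need not hold all tags of a gene. Counts at the deposited polyadenylation sites given to 1 gene alone came to 0.568 of the gene count for Nfe2l2, 0.720 for Gclm and 1.32 for Gsr. Among the wild-type total libraries Sod1, the cytosolic copper-zinc superoxide dismutase, was the most abundant member at 2223 CPM ± 282 (SD, n = 36). Cat, the catalase of peroxisomes, followed at 1471 CPM ± 246 (SD, n = 36). Their ranges over the 36 libraries overlapped, with the lowest Sod1 library at 1626 CPM and the highest Cat library at 1922 CPM. Prdx6, a peroxiredoxin with a single active cysteine, stood at 545 CPM ± 69.8 (SD, n = 36), below every library of those genes.

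The subunits of glutamate-cysteine ligase, the rate-limiting enzyme of glutathione synthesis, stood next and at nearly the same level. Gclm, its modifier subunit, averaged 168 CPM ± 26.1 and Gclc, its catalytic subunit, 167 CPM ± 55.2 (SD, n = 36), a difference well inside their spread. Keap1 at 84.9 CPM ± 11.6 and Nfe2l2 at 72.5 CPM ± 16.6 (SD, n = 36) also overlapped. Srxn1, sulfiredoxin, which restores over-oxidised peroxiredoxins, averaged 43.4 CPM ± 9.20, and Gsr, glutathione reductase, 17.1 CPM ± 6.36 (SD, n = 36). Nqo1, a quinone reductase and the most used marker of NRF2 activity, was scarce at 2.94 CPM ± 1.81 (SD, n = 36). That is a mean of 23.2 counts per wild-type library, so its values carry the largest counting error of the 10.

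Gclc was the member with a daily rhythm in all 3 wild-type series. In wild-type total RNA its lowest, median and highest libraries were 168, 211 and 290 CPM at ZT2 and 158, 197 and 213 CPM at ZT6. They were 92.0, 129 and 169 CPM at ZT10 and 82.4, 98.7 and 183 CPM at ZT14. The level then came back, with 103, 133 and 156 CPM at ZT18 and 179, 210 and 263 CPM at ZT22. Every library at ZT22 stood above every library at ZT18, and the ranges of the highest time, ZT2, and the lowest, ZT14, overlapped through 1 library at 183 CPM. A rhythm was tested as a cosine and sine of 24 h with edgeR's quasi-likelihood test and Benjamini-Hochberg adjustment over all genes, with a threshold of 0.05. Gclc had a fitted peak at ZT1.3 and a fitted peak-to-trough ratio of 2.15 (edgeR adjusted p = 1.05e-06).

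Gclc rose and fell in nuclear and polysomal RNA as well. In nuclear RNA the group means ran from 84.6 CPM ± 41.0 (SD, n = 6) at ZT14 to 171 CPM ± 77.3 (SD, n = 6) at ZT22, with the lowest, median and highest ZT22 libraries at 57.3, 175 and 258 CPM. Those ranges overlapped. The fitted nuclear peak was at ZT23.3 with a ratio of 1.96 (edgeR adjusted p = 0.0102). In polysomal RNA the lowest, median and highest libraries were 371, 519 and 856 CPM at ZT2 and 137, 201 and 273 CPM at ZT18, 2 ranges that did not overlap. The fitted polysomal peak was at ZT3.1 with a ratio of 2.23 (edgeR adjusted p = 0.000158).

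The nuclear call was the least firm. It was lost without the libraries with Xist or Cfd (log2 peak-to-trough ratio 0.66 against 0.97, edgeR adjusted p = 0.188) and in replicates 4 to 6 alone (0.70, edgeR adjusted p = 0.321). With time as a factor in place of the cosine its edgeR adjusted p was 0.0921. The polysomal call was lost in replicates 1 to 3 alone (edgeR adjusted p = 0.0677, at a log2 ratio of 1.09 against 1.16). The later fitted peaks from nuclear to total to polysomal RNA were not called as differences: the edgeR adjusted p for another rhythm than in total RNA was 0.9997 for nuclear and 0.923 for polysomal Gclc. That test called 0 of 10 members and 0.0% of all genes in either fraction, with 244 genes for nuclear and 681 for polysomal RNA at an unadjusted p under 0.05. DESeq2 called 0 genes for nuclear and 9 for polysomal RNA.

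**Figure D1:**
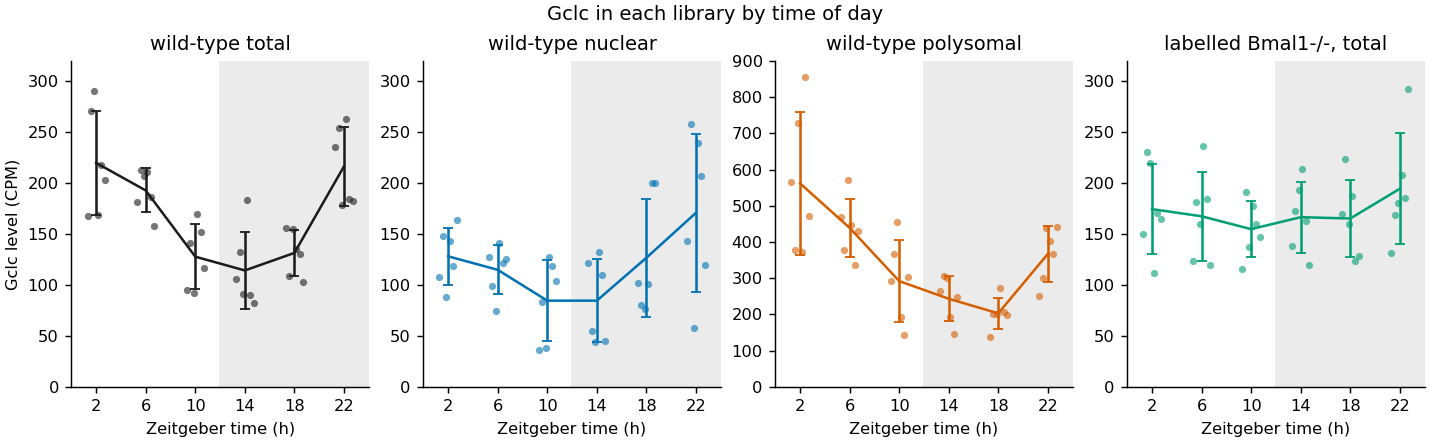
Gclc level in CPM (vertical axis, wider in the polysomal panel) against zeitgeber time in hours, in 4 series. Points are libraries, lines and bars the mean and SD of 6, and grey is the dark phase. The 3 wild-type series fall from the early light phase to ZT14 or ZT18 and come back by ZT22, while the means of the series labelled Bmal1-/- stay between 155 and 195 CPM.

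In the libraries labelled Bmal1-/-, Gclc had no called rhythm. Its lowest, median and highest libraries were 112, 168 and 230 CPM at ZT2, 116, 153 and 191 CPM at ZT10 and 119, 168 and 214 CPM at ZT14. At ZT22 they were 132, 183 and 293 CPM. All 6 times overlapped, and the fitted ratio was 1.20 (edgeR adjusted p = 0.9999). The rhythm differed from that of wild-type total RNA by the interaction test (edgeR adjusted p = 0.0089). It was the only member called there, 1 of 10, beside 5.11% of all genes. The difference was not called in replicates 4 to 6 alone (edgeR adjusted p = 0.445). The mean of Gclc over the day was not called different: 171 CPM ± 40.0 (SD, n = 36) labelled Bmal1-/- against 167 CPM ± 55.2 (SD, n = 36), with a log2 change of -0.03 after TMM scaling (SE 0.07, edgeR adjusted p = 0.806), opposite in sign to the CPM means.

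Srxn1 was the second member with a called rhythm in wild-type total RNA, so 2 of 10 members were called there beside 18.9% of all genes. Its libraries were lowest at 39.1, median 47.6 and highest 64.9 CPM at ZT2, and 27.9, 34.4 and 44.4 CPM at ZT14. The level was high from ZT22 to ZT6 and low at ZT14 and ZT18, and the highest and lowest times overlapped. The fitted peak was at ZT2.9 with a ratio of 1.45 (edgeR adjusted p = 0.00159). The call was lost in replicates 4 to 6 alone (log2 ratio 0.46 against 0.54, edgeR adjusted p = 0.155). Nuclear Srxn1 had a fitted ratio of 1.34 (edgeR adjusted p = 0.513) and polysomal Srxn1 1.33 (edgeR adjusted p = 0.424), neither of them called. In RNA labelled Bmal1-/- its ratio was 1.26 (edgeR adjusted p = 0.9999), and the difference from wild type was not called (edgeR adjusted p = 0.687).

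The remaining 8 members had no rhythm called by this test over the 36 libraries of any series. In nuclear RNA 1 of 9 tested members was called, beside 5.99% of all genes, since Nqo1 had a mean of 9.94 counts there and missed the filter of 10. In polysomal RNA 1 of 10 was called, beside 7.9% of all genes. In RNA labelled Bmal1-/- edgeR called 0 of 10, beside 0.00825% of all genes, and 0 of the 10 had an unadjusted p under 0.05. Over all genes 491 had such a p there, and DESeq2 called 0.

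Several members came near the threshold. Prdx6 in wild-type total RNA had a fitted peak at ZT16.5, in the dark phase, with a ratio of 1.22 (edgeR adjusted p = 0.0735), and its group means ran from 492 CPM ± 92.3 (SD, n = 6) at ZT2 to 582 CPM ± 57.1 (SD, n = 6) at ZT18. DESeq2 called that rhythm (adjusted p = 0.0328). Gclm followed Gclc in time, with a fitted peak at ZT3.0 and a ratio of only 1.20 (edgeR adjusted p = 0.116). Polysomal Sod1 had the widest uncalled span, a ratio of 1.79 with a fitted peak at ZT17.3 (edgeR adjusted p = 0.0913). It passed in replicates 4 to 6 alone (edgeR adjusted p = 0.00861). Nfe2l2 and Keap1, the factor and its partner, had ratios of 1.15 and 1.08 in wild-type total RNA (edgeR adjusted p = 0.569 and 0.714). Cat had a fitted ratio of 1.004 (edgeR adjusted p = 0.999), with group means between 1411 and 1517 CPM.

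**Figure D2:**
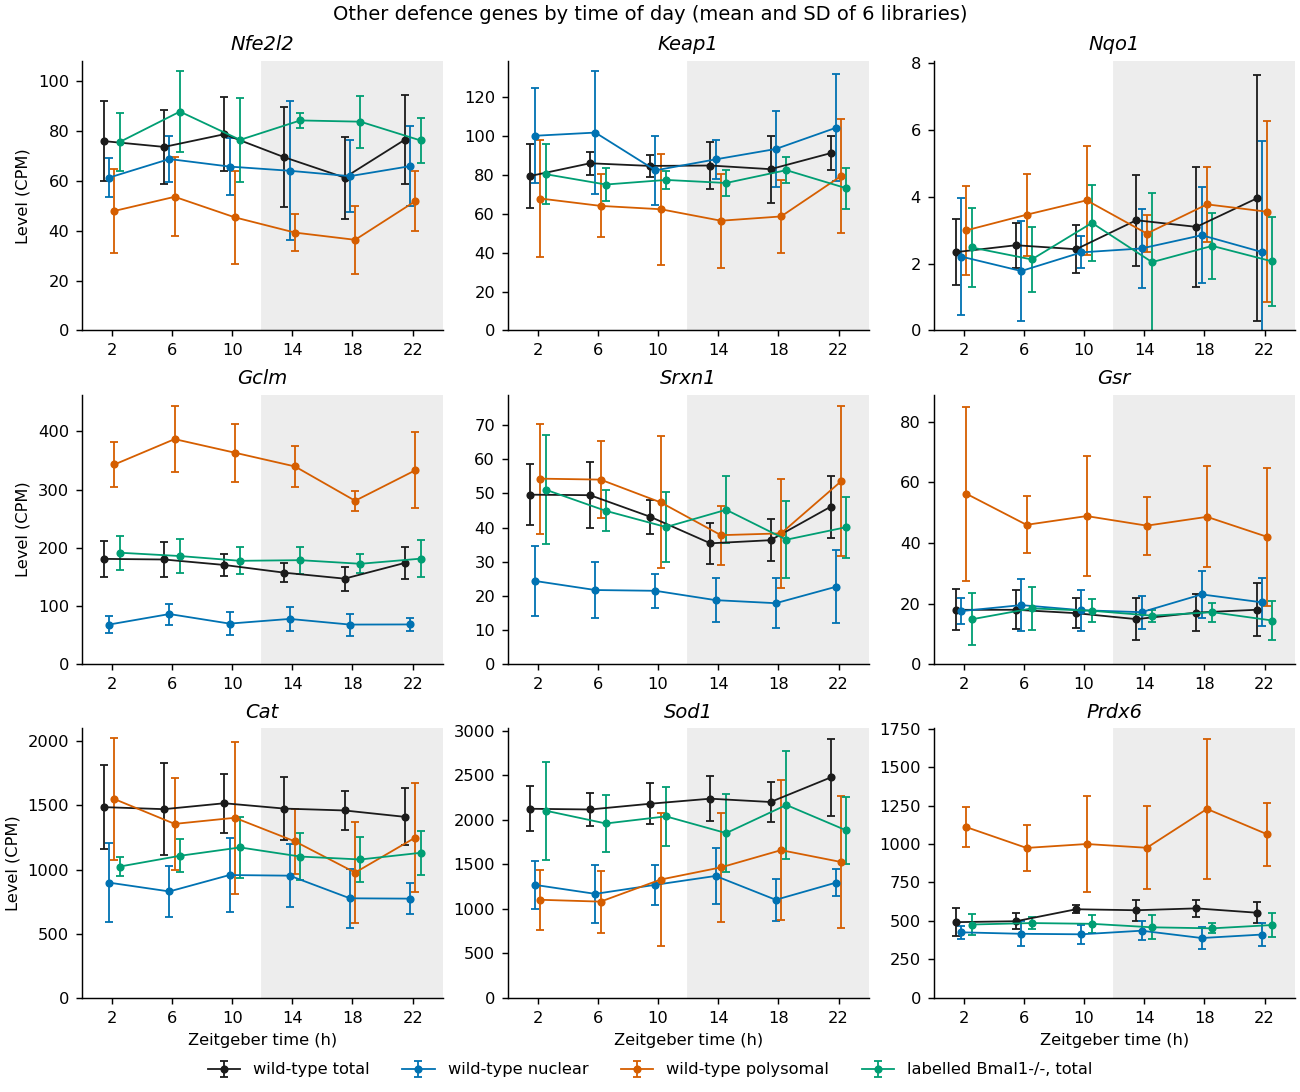
Levels in CPM (vertical axes from 0) of the other 9 genes against zeitgeber time in hours. Points and bars are the mean and SD of 6 libraries in 4 series, offset sideways, and grey is the dark phase. Gclm and Prdx6 lie highest in polysomal RNA at all 6 times, Cat and Sod1 lie below wild-type total RNA in the nuclear series at all 6, and the daily course of most genes is flat beside their spread.

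The mean of the 6 time points was compared between the libraries labelled Bmal1-/- and wild type with the same test on TMM-scaled counts. Of the 10 members 4 fell, beside 22.4% of all genes lower, and 0 rose, beside 21.7% higher. In either direction 4 of 10 were called, near the 44.2% of all genes, and they were also the 4 with an unadjusted p under 0.05. The median log2 change was -0.20 over the members and -0.00 over all genes tested.

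Cat, the catalase, fell the most. Its libraries labelled Bmal1-/- had a lowest, median and highest of 932, 1010 and 1157 CPM at ZT2, against 1170, 1457 and 1864 CPM in wild type, and those ranges did not overlap. Its mean was lower at 6 of 6 times, at 1103 CPM ± 162 against 1471 CPM ± 246 (SD, n = 36). Of the 36 libraries, 18 were below every wild-type library. The log2 change was -0.52 (SE 0.06, edgeR adjusted p = 9.19e-11). Prdx6 averaged 471 CPM ± 57.8 against 545 CPM ± 69.8 (SD, n = 36), lower at 6 of 6 times, and at ZT18 without overlap. Its log2 change was -0.31 (SE 0.05, edgeR adjusted p = 6.24e-08). Keap1 averaged 77.4 CPM ± 9.24 against 84.9 CPM ± 11.6 (SD, n = 36), lower at 5 of 6 times, with a log2 change of -0.24 (SE 0.05, edgeR adjusted p = 2.4e-05). Ranges of Keap1 overlapped at every time.

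Sod1 averaged 2000 CPM ± 434 against 2223 CPM ± 282 (SD, n = 36), lower at 6 of 6 times, with a log2 change of -0.26 (SE 0.06, edgeR adjusted p = 0.00047). That change rested on replicates 1 to 3, where the means were 1715 CPM ± 247 and 2295 CPM ± 315 (SD, n = 18 each). In replicates 4 to 6 they were 2285 CPM ± 392 and 2151 CPM ± 232 (SD, n = 18 each), and the log2 change there was -0.05 (edgeR adjusted p = 0.675). The summed hepatocyte markers moved the same way, with means of 43783 CPM labelled Bmal1-/- and 71430 CPM in wild type in replicates 1 to 3, and 63661 and 60324 CPM in replicates 4 to 6.

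Nfe2l2 and the other 5 enzymes among the 10 genes were not called different. Nfe2l2 had a log2 change of 0.06 (SE 0.06, edgeR adjusted p = 0.512), Gclm 0.01 (SE 0.05, edgeR adjusted p = 0.913) and Srxn1 -0.11 (SE 0.07, edgeR adjusted p = 0.196). Nqo1 changed by -0.37 (SE 0.18, edgeR adjusted p = 0.103). Gsr changed by -0.16 (SE 0.13, edgeR adjusted p = 0.311), and its sign turned between replicates 1 to 3 (0.24) and replicates 4 to 6 (-0.56, edgeR adjusted p = 0.00691). CPM without TMM scaling gives the same direction for the 4 genes that fell. The summed level of the 4 cholangiocyte markers moved with the genotype, with a range of 33.3 to 117 CPM labelled Bmal1-/- and 9.90 to 53.0 CPM in wild type. Among them Krt7 was under 0.5 CPM in both and Krt19 only in wild type. The 5 pancreas acinar markers summed to a median of 102 CPM labelled Bmal1-/- and 34.3 CPM in wild type, with ranges of 15.6 to 185 CPM and 15.0 to 94.4 CPM. Of these markers Cpa1, Ctrb1, Prss2 and Pnlip averaged under 0.5 CPM in both, so the sums rest almost wholly on Cela1. The part of these markers, and of the hepatocyte markers, in these results was not tested. In such bulk RNA fewer cells of a type and less RNA per cell cannot be told apart.

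Nuclear RNA held less of most members than total RNA. Here 7 of 10 were lower, beside 42.1% of all genes, and 0 were higher, beside 41.6%, with 83.8% called in all. These 7 were also the members with an unadjusted p under 0.05. The median log2 change was -0.51 over the members and -0.01 over all genes. Gclm had the largest difference: its nuclear libraries had a lowest, median and highest of 45.3, 69.9 and 117 CPM, against 117, 171 and 224 CPM in total RNA. Nuclear ranges lay below total ones at 6 of 6 times, and 35 of 36 nuclear libraries were below every library of total RNA. The log2 difference was -1.27 (SE 0.06, edgeR adjusted p = 5.6e-29).

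Srxn1 was next, at 21.1 CPM ± 7.94 (SD, n = 36) in nuclei, a log2 difference of -1.11 (SE 0.09, edgeR adjusted p = 9.53e-20). Sod1 at 1246 CPM ± 257 (SD, n = 36) was lower without overlap at 6 of 6 times, with a log2 difference of -0.88 (SE 0.08, edgeR adjusted p = 1.53e-17). Cat was lower by a log2 difference of -0.84 (SE 0.08, edgeR adjusted p = 3.61e-16). The summed hepatocyte markers were lower in nuclei too, at 19516 to 55710 CPM against 26855 to 87247 CPM in total RNA, and their part was not tested. Gclc followed at -0.58 (SE 0.09), Prdx6 at -0.44 (SE 0.06) and Nfe2l2 at -0.21 (SE 0.08), with edgeR adjusted p of 8.13e-08, 2.26e-09 and 0.0118. The small Nfe2l2 difference was not called in replicates 1 to 3 alone (-0.13, edgeR adjusted p = 0.16).

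Keap1 (0.10, SE 0.07) and Gsr (0.10, SE 0.12) were not called different between nuclear and total RNA (edgeR adjusted p = 0.158 and 0.441). Keap1 was called higher in replicates 1 to 3 alone (0.28, edgeR adjusted p = 0.00803), and both stood at -0.01 when genes of low count were kept. Nqo1 stood at -0.39 (SE 0.20, edgeR adjusted p = 0.0655). With a mean of 9.94 counts in nuclear and 23.2 in total RNA, it passed the filter of 10 only through total RNA. A lower nuclear value was therefore built into its comparison, and Nqo1 is among the 10 genes behind the median of -0.51. The nuclear RNAs Malat1 and Neat1 together had a median of 2726 CPM in nuclear and 1964 CPM in total RNA, and their ranges overlapped. In polysomal RNA that median was 58.7 CPM.

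On polysomes the members went both ways, in shares near those of all genes. Higher than in total RNA were 4 of 10, beside 38.4% of all genes, and lower were 4 of 10, beside 37.6%, with 76.1% called in all. The enzymes of glutathione synthesis and reduction and Prdx6 were higher, and the factor, its partner, Cat and Sod1 were lower. The median log2 difference was 0.11 over the members and 0.01 over all genes.

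Gsr had the largest difference, with 9.87, 47.0 and 93.8 CPM as its lowest, median and highest polysomal library against 7.09, 16.2 and 30.2 CPM in total RNA. Of 36 polysomal libraries, 32 were above every library of total RNA, and the log2 difference was 1.41 (SE 0.14, edgeR adjusted p = 1.81e-14). Gclm had 233, 345 and 470 CPM against 117, 171 and 224 CPM, with all 36 polysomal libraries above every one of total RNA, and a log2 difference of 0.96 (SE 0.06, edgeR adjusted p = 9.79e-24). Gclm was thus the member whose 3 wild-type series were set apart at every time, with nuclear lowest and polysomal highest. Gclc averaged 351 CPM ± 159 (SD, n = 36) on polysomes, a log2 difference of 0.97 (SE 0.08, edgeR adjusted p = 6.29e-17), without overlap at ZT2 and ZT6. Prdx6 averaged 1059 CPM ± 271 (SD, n = 36), without overlap at 5 of 6 times and with a log2 difference of 0.88 (SE 0.07, edgeR adjusted p = 5.92e-19).

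Sod1 was lower on polysomes at 1361 CPM ± 618 (SD, n = 36), a log2 difference of -0.81 (SE 0.11, edgeR adjusted p = 4.15e-10). Nfe2l2 at 45.6 CPM ± 14.8 (SD, n = 36) was lower by -0.75 (SE 0.09, edgeR adjusted p = 3.95e-12), with 19 of 36 libraries below every one of total RNA. Keap1 at 64.8 CPM ± 24.5 (SD, n = 36) was lower by -0.48 (SE 0.10, edgeR adjusted p = 9.02e-06). Cat was lower by -0.26 (SE 0.10, edgeR adjusted p = 0.0152), but its direction turned between replicates 1 to 3 and 4 to 6. It was 0.16 (edgeR adjusted p = 0.298) in replicates 1 to 3 and -0.73 (edgeR adjusted p = 1.65e-07) in replicates 4 to 6. Nqo1 (0.16, SE 0.17) and Srxn1 (0.05, SE 0.09) were not called, and the sign of Srxn1 turned with RLE scaling. Haemoglobin transcripts had a median summed level of 8749 CPM in polysomal and 2504 CPM in total RNA. Markers of pancreas acinar cells reached 1684 CPM and of airway club cells 667 CPM in single polysomal libraries, against at most 94.4 and 0.109 CPM in total RNA. The summed hepatocyte markers ran from 12540 to 57158 CPM on polysomes. The part of these markers in these differences was not tested.

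**Figure D3:**
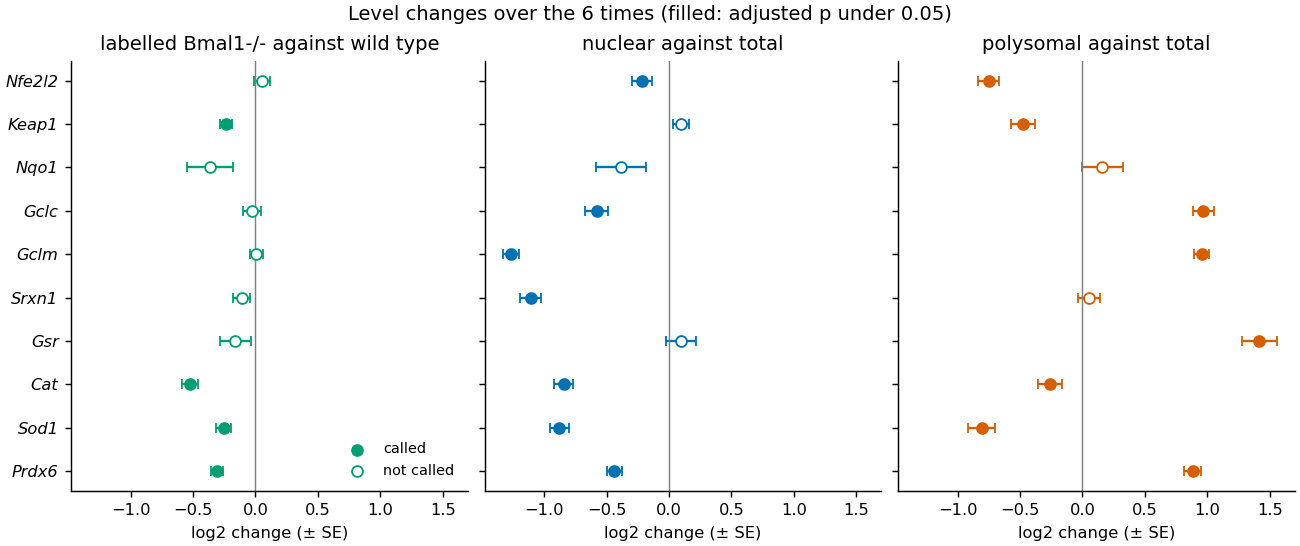
The log2 change of the level (horizontal axis) of each gene over the 6 times in 3 comparisons, with bars for the SE. Filled points have an edgeR adjusted p under 0.05. The left panel has 4 filled points, all below 0, the middle panel 7, all below 0, and the right panel 4 on either side of 0.

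By the deposited list of polyadenylation sites, the members also differed between fractions in which sites held their counts. Whether a site deep inside a gene is an end of its mRNA was not tested. Positions are given as bases before the annotated gene end (GRCm38.p6). A share is the part of the counts at all sites given to that gene alone. Usage was tested at 20 sites of 7 members, Nfe2l2, Keap1, Gclc, Gclm, Gsr, Sod1 and Prdx6. Cat had 98.7% ± 0.656 (SD, n = 36) of its wild-type total counts at 1 site and Srxn1 99.0% ± 0.989 (SD, n = 36), and Nqo1 had too few counts. Nuclear usage differed from total at 17 of 20 sites, beside 78.7% of all sites tested, and polysomal usage at 16 of 20, beside 70.5%. Usage in RNA labelled Bmal1-/- differed at 6 of 20, beside 9.04%, all of them sites of Gclm, Keap1 and Prdx6. Each site is tested against the total of its own gene. Sites of 1 gene therefore move against each other, and these counts of sites are not counts of independent events. A daily rhythm of usage in wild-type total RNA was called by edgeR at 0 of 20, with 4 of them at an unadjusted p under 0.05, beside 0.351% of all sites. No other tool was run on sites.

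Nfe2l2 differed in its site shares in both fractions. The site nearest its end, 66 bases before it, held 27.7% ± 8.33 (SD, n = 36) of the counts in total RNA. It held 8.32% ± 4.63 in nuclear and 51.9% ± 17.1 in polysomal RNA (SD, n = 36). The log2 difference of usage was -1.77 (SE 0.15, edgeR adjusted p = 4.17e-17) in nuclei and 0.91 (SE 0.12, edgeR adjusted p = 6.33e-10) on polysomes. The site 1044 bases before the end went the other way, with 47.3% ± 8.86 in total, 66.1% ± 10.4 in nuclear and 15.0% ± 11.1 in polysomal RNA (SD, n = 36). Its differences were 0.48 (SE 0.07, edgeR adjusted p = 2.21e-09) and -1.74 (SE 0.17, edgeR adjusted p = 2.74e-14). Another site, 15749 bases before the end and deep inside the gene, held 15.1% ± 4.80 in total and 26.0% ± 15.4 in polysomal RNA (SD, n = 36). For the label Bmal1-/- no Nfe2l2 site was called over all 36 libraries, with 24.6% ± 7.59 (SD, n = 36) at the site nearest the end. In replicates 4 to 6 alone the site at 15749 bases was called, at 0.70 (edgeR adjusted p = 0.0062), against -0.12 in replicates 1 to 3. The summed site counts of Nfe2l2 were 0.568 of its gene count, so reads outside the listed sites take part in its gene level.

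Keap1, which has 5 tested sites, ended mostly at a site 986 bases before its annotated end, with 66.8% ± 4.37 (SD, n = 36) in total RNA and 56.7% ± 11.7 (SD, n = 36) on polysomes. Its last site, 44 bases before the end, rose from 7.72% ± 1.76 in total to 13.9% ± 3.22 in nuclear and 23.2% ± 9.19 in polysomal RNA (SD, n = 36). Those log2 differences were 0.84 (SE 0.08, edgeR adjusted p = 2.59e-14) and 1.55 (SE 0.11, edgeR adjusted p = 1.81e-19). Nfe2l2 and Keap1 thus both had a larger share at their last site on polysomes than in total RNA, and went opposite ways in nuclei. For the label Bmal1-/-, the Keap1 sites 363 and 986 bases before the end were called. Their log2 differences were -0.24 (SE 0.08, edgeR adjusted p = 0.0358) and 0.074 (SE 0.025, edgeR adjusted p = 0.0494).

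Gsr had 2 sites. The site 120 bases before its end held 60.5% ± 19.2 in total, 66.1% ± 17.9 in polysomal and 18.8% ± 13.9 in nuclear RNA (SD, n = 36), and the rest lay 33154 bases before the end. The nuclear log2 difference of the end site was -1.79 (SE 0.18, edgeR adjusted p = 7.88e-14), and the polysomal one was not called (0.14, SE 0.11, edgeR adjusted p = 0.289). The site counts of Gsr came to 1.32 times its gene count, so the gene and site counts of Gsr do not cover the same reads. Per library, nuclear RNA averaged 234 Gsr site counts and 79.4 gene counts, and total RNA 144 and 132. The site at 33154 bases averaged 59.1 CPM of site counts in nuclear and 8.97 CPM in total RNA. The end site averaged 10.7 and 14.8 CPM. The Gsr gene level, not called different in nuclei, thus leaves out reads that enter the nuclear share.

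Among the kept Gclm sites, most counts lay 829 bases before the gene end. The Gclm site 356 bases before the end held 19.3% ± 5.34 in total, 16.1% ± 5.31 in nuclear and 27.7% ± 6.03 in polysomal RNA (SD, n = 36). The polysomal log2 difference was 0.52 (SE 0.08, edgeR adjusted p = 8.13e-08). With the label Bmal1-/- it held 15.5% ± 3.27 (SD, n = 36), a log2 difference of -0.31 (SE 0.08, edgeR adjusted p = 0.00969). A Gclm site at chr3:122257213-122257282 lies also in the pseudogene Gm6061 and was left out. It held 95607 counts over all libraries, so the main Gclm end and the Gclm shares hold only among the 3 kept sites. How much of that site enters the Gclm gene level was not tested. Prdx6 had 19.7% ± 2.23 of its total counts at the site 1525 bases before the end, with 28.3% ± 6.09 in nuclear, 13.1% ± 4.93 in polysomal and 22.5% ± 2.90 in Bmal1-/- labelled RNA (SD, n = 36). The difference for the label Bmal1-/- was 0.19 (SE 0.04, edgeR adjusted p = 0.000143). It was the 1 call of the 6 for that label that stood in replicates 1 to 3 alone. Gclc held 63.5% ± 8.65 of its total counts at 1 site, 902 bases before the end, and 79.5% ± 5.65 of its nuclear counts (SD, n = 36), a log2 difference of 0.33 (SE 0.04, edgeR adjusted p = 3e-11). Sod1 had 89.5% ± 2.68 in total and 92.1% ± 3.60 in nuclear RNA (SD, n = 36) at its last site, a log2 difference of 0.040 (SE 0.013, edgeR adjusted p = 0.00317).

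**Figure D4:**
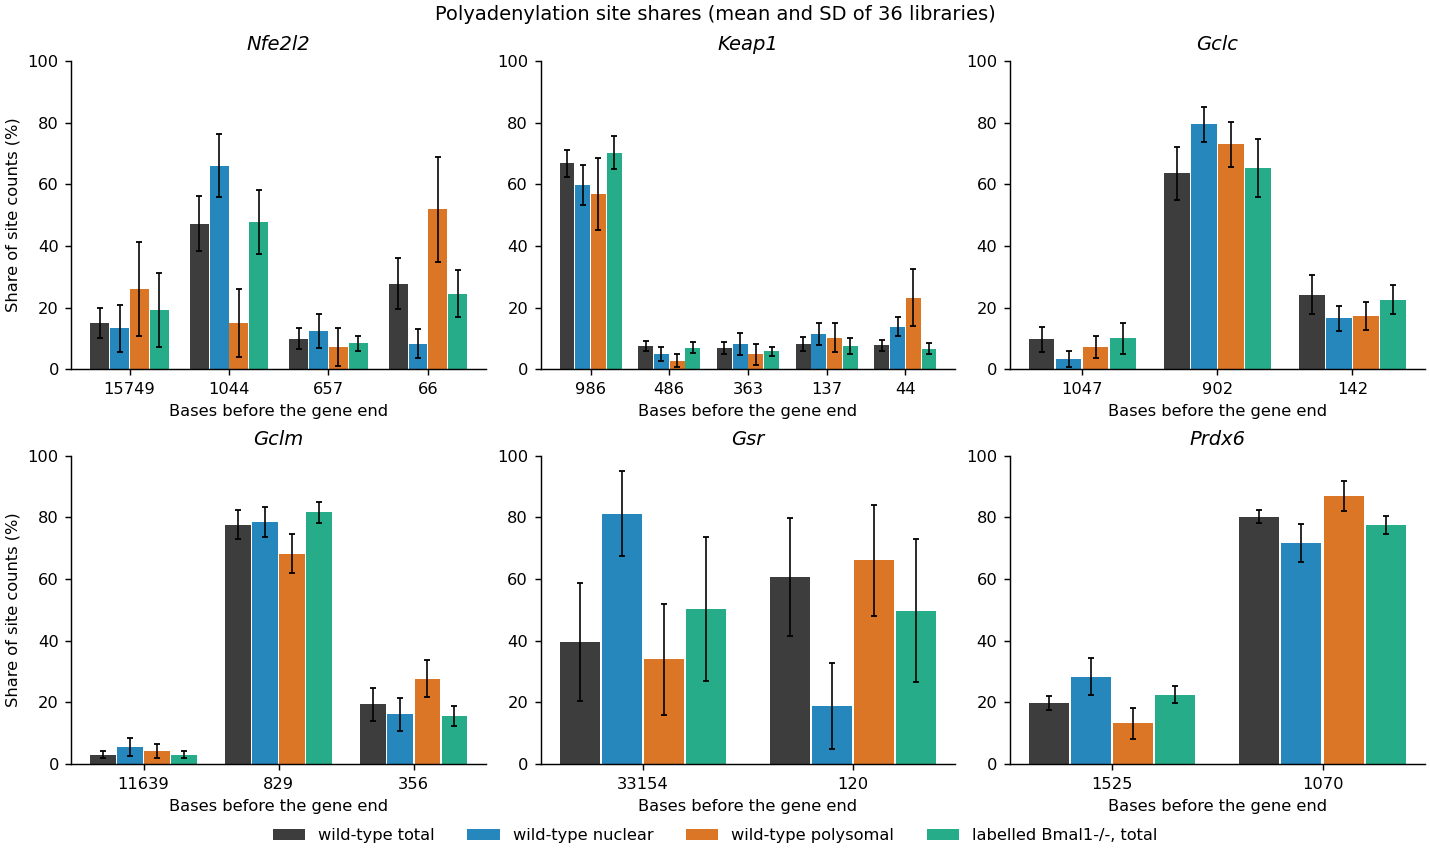
Share of a gene's polyadenylation site counts in percent (vertical axis) at each site with at least 5% in a series, for 6 genes in 4 series. Sites are labelled by bases before the gene end, and bars are the mean and SD of 36 libraries. The last Nfe2l2 site runs from 8.32% in nuclear to 51.9% in polysomal RNA, and the last Gsr site from 18.8% in nuclear to 66.1% in polysomal RNA.

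The members were also compared with all genes by the Pearson r of log2 group means over the 24 groups of series and time, among 9727 genes. These groups span the fractions and both genotypes, and the 6 times of a series share its RNA preparation, so the values are a description. The genes most like Gclc were Marcks (r = 0.934), Sumo3 (r = 0.928) and Cxadr (r = 0.927). Those most like Gclm were Rnf2 (r = 0.992), Wdr26 (r = 0.991) and Gm10031 (r = 0.991). Prdx6 was closest to Mrpl20 (r = 0.984), Glrx5 (r = 0.984) and Akr7a5 (r = 0.974), and Gsr to Man1a (r = 0.977), Cltb (r = 0.974) and Celf1 (r = 0.972). Among the genes most like Srxn1 were Rad21 (r = 0.956) and Bloc1s5 (r = 0.950). Nfe2l2 was closest to Gm5898 (r = 0.957), Ercc5 (r = 0.955) and Dnajb12 (r = 0.955). Among the genes most like Keap1 were Flt1 (r = 0.911) and Krt18 (r = 0.907). Cat was closest to 4931406C07Rik (r = 0.953), Idh1 (r = 0.925) and Pop4 (r = 0.923), and Sod1 to Gm8566 (r = 0.975), Sdhb (r = 0.948) and mt-Nd3 (r = 0.938). Nqo1, the scarcest, reached only 0.790 with Tysnd1, 0.790 with Glrx and 0.783 with Tmem204. Nfe2l2 itself had negative values with Prdx6 (r = -0.801) and Gsr (r = -0.873), and 0.590 with Keap1.

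Other genes of the pathway were read from 3 lists. Of 12 NRF2 partners and regulators, 10 were counted well enough for the tests. In RNA labelled Bmal1-/- 5 of 10 fell, beside 22.4% of all genes, and 0 rose, with a median log2 change of -0.10. Bach1, a repressor that competes for the same elements, changed by -0.58 (SE 0.09, edgeR adjusted p = 2.21e-07). Sqstm1, the p62 adaptor that removes KEAP1, changed by -0.49 (SE 0.05, edgeR adjusted p = 1.02e-13), and Nfe2l1, the sister factor NRF1, by -0.35 (SE 0.07, edgeR adjusted p = 4.32e-05). In wild-type total RNA 5 of the 10 were rhythmic, beside 18.9% of all genes, among them Bach2, with a ratio of 2.74 and a fitted peak at ZT3.8 (edgeR adjusted p = 0.00204), and the small MAF gene Mafk, with 2.06 at ZT5.8 (edgeR adjusted p = 0.000404). Bach1 had 1.52 at ZT9.1 (edgeR adjusted p = 0.0421), and Btrc, a ubiquitin ligase subunit, 1.51 at ZT3.9 (edgeR adjusted p = 0.0236). Nuclear RNA had 3 rhythmic regulators (Bach2, Bach1 and Sqstm1, beside 5.99% of all genes), polysomal RNA Bach2 and Bach1 (beside 7.9%), and RNA labelled Bmal1-/- 0 by edgeR and by DESeq2, with 0 at an unadjusted p under 0.05. The rhythm of Bach2 differed between genotypes (edgeR adjusted p = 0.0484), the 1 call of 10, beside 5.11% of all genes.

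All 10 regulators differed between nuclear and total RNA, as did 83.8% of all genes, with 7 higher and 3 lower, beside 41.6% and 42.1%. Mafk was higher by 1.32 (SE 0.12), Mafg by 1.08 (SE 0.08) and Bach2 by 1.02 (SE 0.15), while Cul3, the scaffold of the ligase that KEAP1 serves, was lower by -2.04 (SE 0.08, edgeR adjusted p = 4.66e-35). Rbx1, the RING subunit of that ligase, was lower in nuclei by -0.72 (SE 0.06) and higher on polysomes by 1.56 (SE 0.07, edgeR adjusted p = 4.17e-30). Of the 10, edgeR called 7 higher on polysomes, beside 38.4% of all genes, and 0 lower, beside 37.6%, while Nfe2l2 and Keap1 themselves were lower. DESeq2 called 5 of the 10 in either direction.

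The second list held 33 textbook NRF2 targets beside the members. In RNA labelled Bmal1-/- 22 of 31 tested were called, beside 44.2% of all genes. Of these 19 were lower and 3 higher, beside 22.4% and 21.7%, and the median log2 change was -0.42. Gsta1 and G6pdx passed the filter on low counts only through wild-type RNA, so a fall was built into their comparison. Gsta1 is among the 19, and its value is not given. Of the others the lowest were Gsta2, an alpha-class glutathione transferase, at -2.48 (SE 0.28, edgeR adjusted p = 3.87e-11), and Cyp2a5 at -2.07 (SE 0.16, edgeR adjusted p = 9.6e-17). The 3 higher were mu-class transferases, Gstm2 at 1.82 (SE 0.14), Gstm3 at 1.66 (SE 0.20) and Gstm1 at 0.96 (SE 0.10). Transferases of one class have near-identical copies between which reads may be split, so the value of a single one is uncertain. In wild-type total RNA 4 of 31 targets were rhythmic, beside 18.9% of all genes: Cyp2a5 with a ratio of 3.08 peaking at ZT14.0, Cbr1 with 1.87 at ZT20.5, Abcc2 with 1.52 at ZT9.6 and Gsta3 with 1.43 at ZT20.7. Nuclear Osgin1 had a ratio of 2.10 at ZT3.4 (edgeR adjusted p = 0.019), and differences between peak times were not tested. Nuclear RNA had 2 of 30 rhythmic targets (beside 5.99%), polysomal RNA 5 of 31 (beside 7.9%) and RNA labelled Bmal1-/- 0 of 29 by edgeR and by DESeq2, with 2 at an unadjusted p under 0.05. EdgeR called a difference of rhythm between genotypes in 0 of 31 and DESeq2 in 1, with 3 at an unadjusted p under 0.05.

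Between fractions the targets went both ways. Nuclear RNA had 9 of 30 higher and 15 lower (beside 41.6% and 42.1% of all genes), from Ugdh at 1.15 (SE 0.10) and Aox1 at 1.11 (SE 0.10) to Mgst1 at -2.06 (SE 0.13) and Cyp2a5 at -2.70 (SE 0.17). Polysomal RNA had 11 of 30 higher and 14 lower (beside 38.4% and 37.6%), from Gstm4 at 1.68 (SE 0.09) and Hmox1, haem oxygenase, at 1.14 (SE 0.14) to Fth1, ferritin heavy chain, at -2.05 (SE 0.12). The median log2 difference was -0.30 in nuclei and -0.02 on polysomes.

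The third list held 26 other glutathione, thioredoxin, peroxide and superoxide enzymes. In RNA labelled Bmal1-/- 10 of 23 fell and 7 rose (beside 22.4% and 21.7% of all genes), with a median of -0.08, from the peroxiredoxin Prdx2 at -0.84 (SE 0.08, edgeR adjusted p = 4.1e-13) and the glutaredoxins Glrx at -0.56 (SE 0.10) and Glrx5 at -0.55 (SE 0.06) to Ggct at 0.44 (SE 0.09). Prdx2 is also abundant in red cells. Haemoglobin transcripts had a median summed level of 1427 CPM there and 2504 CPM in wild type, and their part was not tested. In nuclei 17 of 23 were lower and 3 higher (beside 42.1% and 41.6%), with a median of -0.54. Chac2, 1 of the 23, passed the filter there only through total RNA. On polysomes 17 of 24 were higher and 3 lower (beside 38.4% and 37.6%), with a median of 0.53. One of the 17, Txnrd2, a mitochondrial thioredoxin reductase, passed the filter on low counts only through polysomal RNA, so it had to differ and its value is not given. Of the others, Gpx4 stood at 1.38 (SE 0.21) and Glrx5 at 1.37 (SE 0.08). Rhythms were called in 6 of 23 in wild-type total RNA (beside 18.9%), 1 of 22 in nuclear (5.99%), 2 of 24 in polysomal (7.9%) and, by both tools, 0 of 23 in RNA labelled Bmal1-/-. Glrx was called in all 3 wild-type series, with ratios of 1.68, 1.67 and 1.98 and fitted peaks at ZT17.4, ZT16.0 and ZT18.0.

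**Figure D5:**
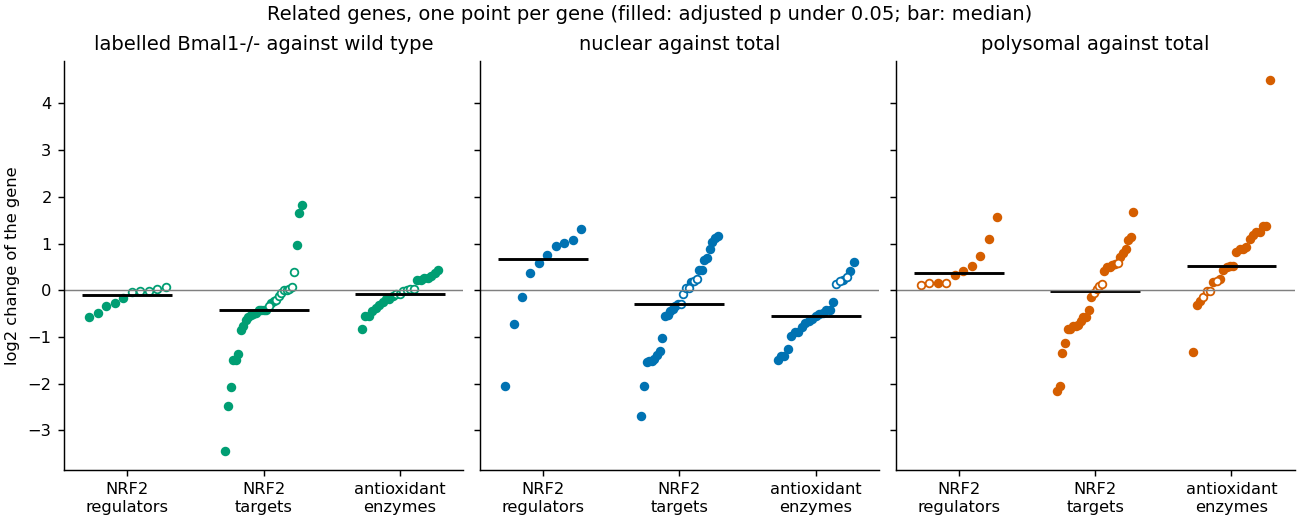
The log2 change of the level (vertical axis) of each gene in the 3 lists of related genes, in 3 comparisons, sorted within a list. Filled points have an edgeR adjusted p under 0.05 and bars are list medians. The targets labelled Bmal1-/- reach up to 1.82. Their lowest point, Gsta1, passed the filter on low counts only through wild-type RNA. The nuclear enzymes have a median of -0.54, and the polysomal enzymes one of 0.53.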

How the data were processed

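The authors deposited raw counts per gene symbol and raw counts per polyadenylation site, 1 column per library, and these count tables were used. Their normalized tables were not used. The submitters' processing notes name STAR 2.4.2a, edgeR, HOMER, mm10 and GRCm38.p5. Which step each served, and whether strand was used in counting, is not given in the sources used here. The deposited site list gives positions, on mm10, in a unit of another kind (coordinates), per the file itself.

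Groups and replicate numbers came from the sample titles, and 0 columns were left without a sample. The labels do not say that a replicate number marks a shared animal or day, so the tests had no block. Among 360 pairs of libraries within a group, 0 held the same values, and the chi-square of their counts was at least 4.03 per degree of freedom.

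Tests used edgeR 4.0.16 under R 4.3.3 (robust quasi-likelihood F test, TMM factors, genes averaging 10 counts or more), adjusted by Benjamini-Hochberg over all genes or sites tested, with a threshold of 0.05. Each of the 4 series kept its own fit for rhythm. Level comparisons averaged the 6 times of each series. Sites were given to the gene of the same strand whose RefSeq GRCm38.p6 span, with 1000 bp past its end, held them, where site counts were 0.3 to 1.5 times the gene count. As a check of the build, 20.7% of sites lay within 25 bp of a gene end, and 0.0959% after a shift of 5000 bp. In this way 26541 sites were given to 9057 genes. The strand of Gclc, Gsr and Prdx6 was taken as that with most site counts. Usage was tested with the logarithm of the gene's site total plus 0.5 as offset, at sites with at least 5% where the gene averaged 50 site counts or more. Likeness between genes used log2 of group means with a pseudocount of 0.5 CPM.

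Alternatives were RLE factors, all genes with at least 1 count, replicates 1 to 3 or 4 to 6 alone, a replicate block, time as a factor, DESeq2 1.42.0 and leaving out libraries with Xist or Cfd. Leaving out those with Xist alone was chosen after seeing the data. The scripts were tested on simulated data. The members and lists were chosen with earlier results of these data known. All 10 members were described. Of each list, up to 3 genes called higher and 3 lower with the largest change were named per comparison, and for rhythm the 4 with the largest ratio, not all of which are printed. For every member the 3 genes with the highest Pearson r were to be named, and 2 of these are not reported here.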

Additional observations from a re-analysis of the deposited data

Results flagged for a closer look

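Of 240 groups of 6 libraries, 15 had 1 library set apart from the others by more than Dixon's 95% limit for the gap over the range. Chance alone sets 1 library apart in about 1 in 20 groups. Nqo1 had 5 of them, all high. They were 11.3 CPM in replicate 5 of wild-type total RNA at ZT22, 8.96 CPM in replicate 5 of nuclear RNA at ZT22, 3.28 CPM in replicate 5 of nuclear RNA at ZT10, 7.03 CPM in replicate 3 of polysomal RNA at ZT10 and 6.12 CPM in replicate 5 of the label Bmal1-/- at ZT14. The 2 libraries of replicate 5 at ZT22 are those with Xist, at 408 CPM in total and 4363 CPM in nuclear RNA. The polysomal library with Xist, replicate 1 at ZT22, had the highest polysomal Nqo1, 8.11 CPM, and the one labelled Bmal1-/-, replicate 6 at ZT22, had 3.05 CPM.

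Prdx6 and Sod1 were low in the same library, replicate 4 of wild-type total RNA at ZT2, at 304 CPM beside 519 to 538 CPM and at 1626 CPM beside 2153 to 2323 CPM. Srxn1 was high for the label Bmal1-/- at 82.6 CPM (replicate 5, ZT2) and 57.0 CPM (replicate 6, ZT22, with Xist). Nfe2l2 was low at 43.1 CPM in nuclear replicate 5 at ZT10, and high at 80.7 CPM and 53.6 CPM in polysomal replicate 1 at ZT10 and ZT14. Keap1 was low at 74.6 CPM in total replicate 2 at ZT6. Gsr was high at 35.5 CPM in nuclear replicate 4 at ZT6 and 87.1 CPM in polysomal replicate 6 at ZT10.

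The rhythm of Gclc differed between wild-type total RNA and RNA labelled Bmal1-/- by the interaction test (edgeR adjusted p = 0.0089).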

How the results depend on the processing

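Of the 871 values of single genes under other settings, 837 kept their side of the threshold with no change of direction found, 15 passed it, 8 lost it and 11 changed sign. Direction was checked as the sign of level and usage values. For gene rhythms the peak time was checked only where both settings called them, and for site rhythms it was not checked. Of 333 values of single sites, 304 stayed in the same way, 4 passed, 18 lost the call and 7 changed sign. The cause of each change was not tested, beyond the smaller number of libraries in replicates 1 to 3 or 4 to 6 alone. The number of members with a called rhythm in wild-type total RNA went from 2 to 1 in replicates 4 to 6. In nuclear RNA it went from 1 to 0 in replicates 4 to 6, without libraries with Xist or Cfd, and with time as a factor. In polysomal RNA it went from 1 to 0 in replicates 1 to 3 and to 2 in replicates 4 to 6. The number with a rhythm that differed between genotypes went from 1 to 0 in replicates 4 to 6 and to 2 with DESeq2. Called member sites went from 6 to 1 for the label Bmal1-/- in replicates 1 to 3, and from 17 of 20 to 10 of 12 in nuclei with only sites of at least 10%, where fewer sites are tested. The member counts of the 3 level comparisons stayed within 1.5 times the values given.

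The labels do not say that a replicate number marks a shared animal, litter or day. Deviations from the group means, over 9727 genes, correlated above 0.1 in 34 of 36 same-numbered pairs of nuclear and total libraries (mean r 0.299, lowest -0.035), in 0 of 36 polysomal pairs and in 16 of 36 Bmal1-/- pairs. With a replicate block, called rhythms were 4 in wild-type total RNA (Gclc, Srxn1, Gclm and Prdx6, beside 25.4% of all genes), 2 in polysomal RNA (Gclc and Sod1, beside 14.1%) and 2 for the difference between genotypes (Gclc and Prdx6, beside 6.97%). Each library was also compared with the 6 wild-type total libraries of its time, so chance alone picks its own number in about 1 in 6. Of 36 nuclear libraries, 31 correlated best with their own number, a hint from the data and not from the design. The count was 0 of 36 for polysomal and 12 of 36 for Bmal1-/- libraries. Same-numbered polysomal pairs had a mean r of -0.115, against 0.0244 for other numbers, and Bmal1-/- pairs 0.0663 against -0.0132. The reason was not tested.

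Reversed signs for the label Bmal1-/- in replicates 1 to 3 were -0.10 for Nfe2l2, -0.072 for Gclm and 0.24 for Gsr. In nuclei Keap1 was -0.0052 and Gsr -0.0064 with all genes of at least 1 count, and Keap1 was -0.030 in replicates 4 to 6. On polysomes Srxn1 was -0.04 with RLE factors, -0.016 with all genes, -0.079 in replicates 1 to 3 and -0.04 with DESeq2, and Cat was 0.16 in replicates 1 to 3. Of site usage for the label Bmal1-/-, the Gclc sites 1047 and 902 bases before the end were -0.25 (replicates 4 to 6) and -0.021 (replicates 1 to 3). The Nfe2l2 sites at 1044 and 15749 bases were -0.038 (replicates 4 to 6) and -0.12 (replicates 1 to 3). The Gclm site at 829 bases was -0.042 in nuclei in replicates 1 to 3. The Gsr sites were 0.21 (33154 bases) and -0.090 (120 bases) on polysomes in replicates 4 to 6.

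Over all genes, called rhythms in wild-type total RNA went from 2260 to 1342 (replicates 1 to 3), 622 (replicates 4 to 6) and 1411 with time as a factor. In nuclei they went from 669 to 174, 237, 432 (without Xist or Cfd) and 419 (time as a factor), and on polysomes from 845 to 2107 (all genes), 1506 (replicate block), 115 (replicates 1 to 3) and 346 (time as a factor). For the label Bmal1-/- they went from 1 to 21 (all genes), 0 or 3. Differing rhythms between genotypes went from 617 to 236 (replicates 1 to 3) and 200 (replicates 4 to 6). Differing polysomal rhythms went from 0 to 424 (all genes), 2 (replicate block and replicates 4 to 6) and 9 (DESeq2), and nuclear ones to 5 (all genes) and 1 (number within time). Called sites for the label Bmal1-/- went from 1211 to 762 (replicates 1 to 3) and 1985 (replicate block), and rhythmic sites from 46 to 96 (block), 7 and 3. Keeping all genes with at least 1 count moved the median polysomal log2 difference from 0.01 to -0.29, and the polysomal calls from 4440 higher and 4349 lower to 4369 higher and 8521 lower. Depth limits Nqo1 most among the members, at 0 to 89 counts per library.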
